A study of Mus musculus with 40 samples.

Results

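The comparison described here set the adipocyte fraction of the mouse mammary gland in estrus against the same fraction in proestrus and metestrus. It rests on 6 of the 40 libraries of the series, which are the adult fat libraries labelled proestrus (2), estrus (2) and metestrus (2). The 2 diestrus fat libraries were left out by the rule of selection because they carry epithelial RNA. Whole mRNA was sequenced, and each library was made from a pool of 2 or 3 wildtype FVB/N females of 14 to 16 weeks that were staged by vaginal cytology. No treatment, transgene or deletion was used in any group. The fat layer that floated after collagenase digestion of the third and the fourth glands was taken as it was, without sorting, so vessels, nerves and immune cells of the fat pad could enter it. The pools numbered 1 and 2 of a stage hold different mice, which were assigned to early and late within the stage or, where cytology showed no difference, by cell number.

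White adipocytes store fatty acids as triglyceride in a lipid droplet. They make part of these fatty acids themselves from glucose carbon through acetyl-CoA, malonyl-CoA and the fatty acid synthase complex, and they release fatty acids by lipolysis. In the mammary gland they surround the ducts, supply lipid and secrete leptin, adiponectin and growth factors. Circulating estrogen is high around proestrus and estrus and lower in metestrus, and adipocytes as well as other stromal cells carry receptors for it. Transcription of the genes of sterol and fatty acid synthesis is driven by the SREBP factors, which bind sterol regulatory elements, and interferon-induced genes are driven by STAT and IRF factors, which bind interferon-stimulated response elements.

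The libraries held RNA of the labelled cell type beside that of other cells. All 6 defining adipocyte markers were present in all 6 libraries. Their summed level ranged from 2303 to 3901 CPM (counts scaled to a common library size, on totals scaled over the 8 adult fat libraries). Fibroblast and adipose progenitor markers summed to between 3027 and 6295 CPM, and endothelial markers to between 811.8 and 1983 CPM. Each library held 13889631 to 21094651 counts, and 22.9 to 35.5% of them came from the mitochondrial genome. Proestrus replicate 1 stood apart in epidermal markers, which summed to 233 CPM there and to between 17.09 and 37.47 CPM in the other 5 libraries. Over the 500 genes that differed most between each pair, estrus replicate 1 was nearest to estrus replicate 2, but estrus replicate 2 and metestrus replicate 2 were nearest to each other.

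Most members of the lists of cholesterol synthesis, fatty acid synthesis, the tricarboxylic acid cycle and nuclear-encoded oxidative phosphorylation had lower values in both estrus libraries than in the other 4. Macrophage markers and complement genes had more members with higher values than all genes had, and the single genes that stood furthest apart, such as Mup10, Marco and Cxadr, were of varied function. None of these differences passed an adjusted p of 0.05 when estrus was compared with the mean of proestrus and metestrus with edgeR's quasi-likelihood test. Of 13261 genes tested, 0 were called, and the smallest adjusted p was 0.0636. At an unadjusted p under 0.05 there were 3094 genes (23.3%), of which 1578 (11.9%) were higher and 1516 (11.4%) lower in estrus. Both estrus libraries lay above all 4 others for 2633 genes (19.9%) and below all 4 for 2212 genes (16.7%). The Wald test of DESeq2 on the same libraries and genes called 181 genes higher (1.36%) and 276 lower (2.08%) at an adjusted p under 0.05, together 457 (3.45%). With 2 libraries in estrus, all counts of list members that follow should be read against these shares, and genes are given by their values in each library. The replicates of a stage are separate pools of mice.

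Mup10 (chr4:60578260-60582199, GRCm38), a member of the major urinary protein family of lipocalins whose genes are near-identical copies, had the smallest p of all genes. It was counted at 32.84 and 34.67 CPM in the estrus libraries, at 9.91 and 7.11 CPM in proestrus, and at 8.91 and 9.17 CPM in metestrus. Both estrus libraries lay far above the other 4, which were close to each other. The log2 fold change against the mean of both stages was 1.95 (SE 0.149), a 3.85-fold difference, with an adjusted p of 0.0636 in edgeR and of 2.29e-15 in DESeq2. Reads from near-identical family members may be assigned to any of them. How far the difference belongs to Mup10 alone or to other members was not tested.

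Marco (chr1:120474538-120505024), a scavenger receptor of macrophages, was at 11.63 and 11.31 CPM in estrus, at 7.83 and 6.57 CPM in metestrus, and at 1.38 and 1.33 CPM in proestrus. The 3 stages did not overlap, and metestrus lay between the other two. Against proestrus alone Marco rose by 3.08 on the log2 scale (SE 0.207), and it was the 1 gene of 13261 (0.00754%) that edgeR called in that comparison, with an adjusted p of 0.0302. With the replicate number as a block, or without any 1 of the 6 libraries, the count no longer included Marco. In estrus against metestrus 0 genes were called, and Marco differed by 0.67 (SE 0.181, adjusted p 0.426, edgeR). At an unadjusted p under 0.05, 3257 genes (24.6%) differed between estrus and proestrus, 1549 (11.7%) between estrus and metestrus and 538 (4.06%) between proestrus and metestrus.

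**Figure D1:**
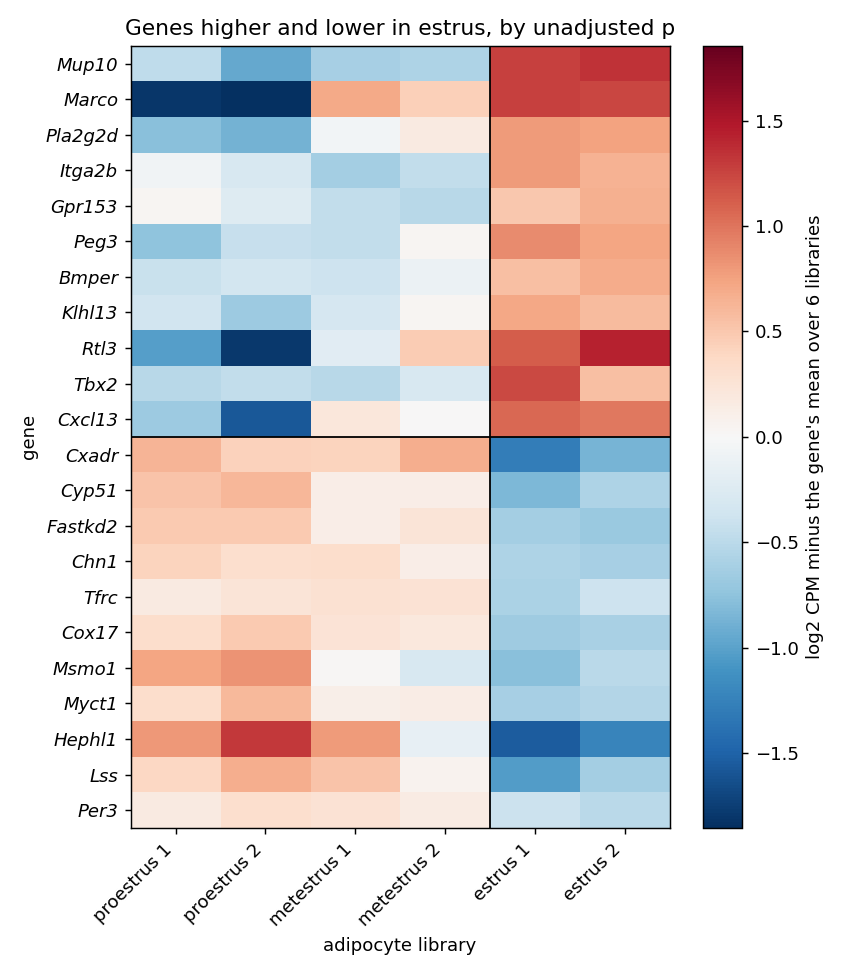
Heat map of genes among the 12 per direction with the smallest unadjusted p, of those of sufficient level whose estrus libraries do not overlap the 4 others. Columns are the 6 adipocyte libraries, and the colour is the log2 CPM minus the mean of the gene over the 6 libraries; red marks a higher and blue a lower value, and the genes were chosen for this difference.

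Further down the list of higher genes, immune genes stood beside genes of growth control. Pla2g2d, a secreted phospholipase A2 of immune cells, was at 23.25 and 22.48 CPM in estrus and between 7.34 and 15.05 CPM elsewhere. Cxcl13, the chemokine that attracts B cells, was at 13.61 and 12.88 CPM in estrus and between 2.20 and 7.55 CPM elsewhere. Both immune genes had their lower values in proestrus and intermediate ones in metestrus. The imprinted zinc finger gene Peg3 was at 96.03 and 87.02 CPM against 31.18 to 53.62 CPM. Tbx2, a T-box transcription factor, differed by 1.38 (log2, SE 0.212), and Rtl3, a gene derived from a retrotransposon, by 1.88 (SE 0.281). Bmper, a secreted modulator of BMP signalling, differed by 0.93, and Klhl13, a substrate adaptor of a ubiquitin ligase, by 0.97. Itga2b, the platelet integrin subunit, differed by 1.08 and the orphan receptor Gpr153 by 0.87. All of these had an edgeR adjusted p between 0.138 and 0.161, so none passed.

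The genes at the top of the list of lower genes included 3 enzymes of sterol synthesis and 2 genes of iron handling. Cxadr, the coxsackievirus and adenovirus receptor of cell junctions, was at 9.64 and 12.81 CPM in estrus and between 31.05 and 37.19 CPM in the other 4 libraries. The log2 fold change was -1.60 (SE 0.167, edgeR adjusted p 0.138). Tfrc, the transferrin receptor through which cells take up iron, was at 38.24 and 43.79 CPM against 64.12 to 69.94 CPM. Hephl1, a ferroxidase related to hephaestin, was at 2.87 and 3.56 CPM against 7.49 to 20.56 CPM. The 4 other libraries agreed closely for Tfrc and spread widely for Hephl1. Cox17, the copper chaperone for cytochrome c oxidase, was at 5.68 and 5.96 CPM against 10.31 to 12.57 CPM. Fastkd2, which acts on mitochondrial RNA, was at 8.54 and 8.22 CPM against 14.38 to 18.58 CPM. Myct1 differed by -0.87 and Chn1, a GTPase-activating protein for Rac, by -0.89 on the log2 scale.

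Genes of cholesterol synthesis were lower in estrus. All 19 tested enzymes and regulators had a log2 fold change below 0, with a median of -0.90, where the median of all 13261 genes was 0.01. An unadjusted p under 0.05 was reached by 18 of 19, against 11.4% of all genes in that direction, and 17 of 19 lay below all 4 other libraries, against 16.7%. DESeq2 called 13 of 19 lower, against 2.08% of all genes, while edgeR called 0. Cyp51, the lanosterol demethylase, was at 18.24 and 21.79 CPM in estrus, at 46.68 and 49.60 CPM in proestrus, and at 35.36 and 35.29 CPM in metestrus. The stages did not overlap, and the order was proestrus, metestrus, estrus. Its log2 fold change was -1.05 (SE 0.116, edgeR adjusted p 0.15). Lss, which closes the sterol rings, was at 12.62 and 16.72 CPM in estrus and between 27.11 and 41.25 CPM elsewhere. Msmo1, the next oxidase of the pathway, was at 11.13 and 13.50 CPM in estrus, at 19.33 and 15.58 CPM in metestrus and at 31.62 and 34.05 CPM in proestrus. For Msmo1 the larger step lay between proestrus and metestrus. Idi1, which interconverts the isoprenoid building blocks, was at 27.49 and 32.69 CPM in estrus and between 45.75 and 58.32 CPM elsewhere.

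Fatty acid synthesis had the largest median difference of the 37 gene lists that describe pathways. Of 20 tested members 19 were below 0, and the median log2 fold change was -1.33. In this direction 18 had an unadjusted p under 0.05, against 11.4% of all genes. Both estrus libraries lay below all 4 others for 18 of 20, against 16.7% of all genes. DESeq2 called 9 of 20 lower, against 2.08%. Scd2, a stearoyl-CoA desaturase, was at 84.74 and 96.62 CPM in estrus, at 330.5 and 548.6 CPM in proestrus and at 359.1 and 185.3 CPM in metestrus. The estrus libraries were close to each other, while metestrus replicate 2 was the lowest of the other 4. Scd2 differed by -1.93 on the log2 scale (SE 0.344), which was 3.82-fold, with an edgeR adjusted p of 0.161. Acss2, which makes acetyl-CoA from acetate, was at 78.24 and 156.7 CPM in estrus and between 236.5 and 429.7 CPM elsewhere. Aacs, which activates acetoacetate for lipid synthesis, was at 83.36 and 158.0 CPM against 185.1 to 389.1 CPM. Mlxipl, the carbohydrate-responsive factor ChREBP, was at 42.64 and 73.39 CPM against 79.89 to 216.0 CPM. For these 3 genes estrus replicate 1 was the lowest library and metestrus replicate 2 lay nearest to estrus. The central enzymes, named here for their role after their values were seen, also had their lowest value in estrus replicate 1, followed by estrus replicate 2 and metestrus replicate 2. Acaca, acetyl-CoA carboxylase, was at 451.8 and 1095 CPM in estrus and between 1245 and 2896 CPM elsewhere (log2 fold change -1.55, SE 0.495). Fasn, the fatty acid synthase, was at 2376 and 6924 CPM in estrus and between 8227 and 17990 CPM elsewhere (log2 fold change -1.61, SE 0.558).

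**Figure D2:**
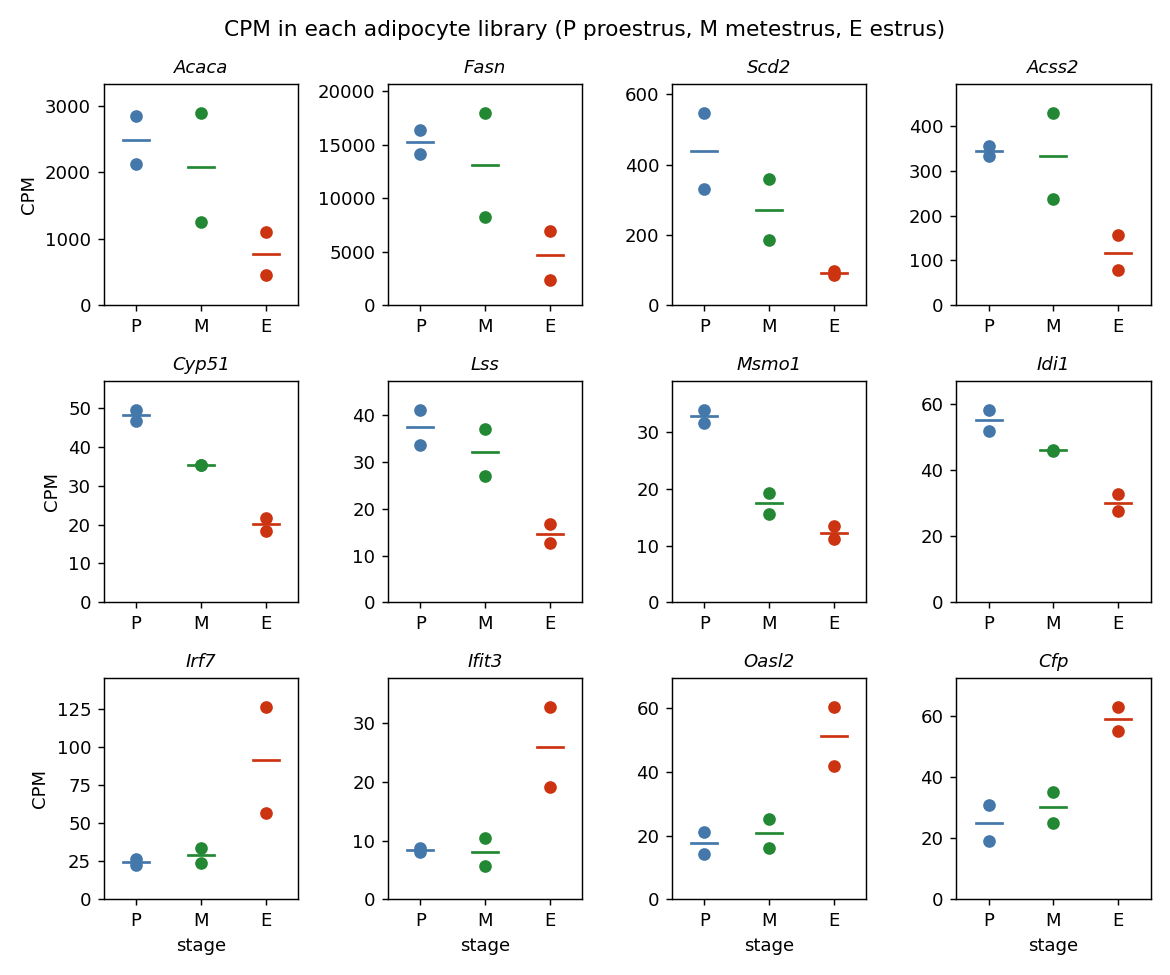
CPM of 12 genes in each adipocyte library, with one point per library and a line at the mean of the 2 libraries of a stage; the axes start at 0. Top row, fatty acid synthesis; middle row, sterol synthesis; bottom row, 3 interferon-induced genes and the complement regulator Cfp. The estrus points do not overlap those of proestrus and metestrus in any of the 12 panels.

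The size of these differences depended on which estrus library was used. Without estrus replicate 1 the median of fatty acid synthesis was -0.95 with 9 of 20 members at an unadjusted p under 0.05 and lower, against 3.54% of all genes. The median of cholesterol synthesis was then -0.75, with 13 of 19. Without estrus replicate 2 the medians were larger, at -2.04 with 18 of 20 and -1.13 with 17 of 19, against 14.9% of all genes. Without metestrus replicate 1 the counts were 10 of 20 and 13 of 19, against 5.51% of all genes. Without proestrus replicate 1, the library with epidermal markers, they were 17 of 20 and 16 of 19, against 9.73% of all genes. Measured against each stage on its own, the medians of fatty acid synthesis were -1.49 for estrus minus proestrus and -1.20 for estrus minus metestrus. Those of cholesterol synthesis were -0.999 and -0.669.

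Motifs were searched on both strands in the RefSeq promoter windows of GRCm38.p6, which reach from 250 bases before to 50 bases after a start, for the 10261 tested genes with such a window. The letters TCACNCCAC, a form of the sterol regulatory element, stood in 1.37% of these genes, in 1 of 13 genes of cholesterol synthesis and in 1 of 16 of fatty acid synthesis. The core of the interferon-stimulated response element (GAAA, any 2 bases, GAAA) stood in 3.93% of all these genes and in 13 of 20 of the interferon response list. The windows of 3 genes are shown because they come from the sterol and the interferon lists, with the motif in capitals; matches on the other strand read as the reverse complement.
Hmgcs1, chr13:119690101-119690400, + strand: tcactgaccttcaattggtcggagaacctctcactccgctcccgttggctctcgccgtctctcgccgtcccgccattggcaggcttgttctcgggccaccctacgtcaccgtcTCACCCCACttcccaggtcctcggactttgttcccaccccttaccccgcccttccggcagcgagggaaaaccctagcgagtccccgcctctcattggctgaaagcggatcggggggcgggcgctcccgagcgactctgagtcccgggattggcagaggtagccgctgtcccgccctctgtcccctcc
Ifit3, chr19:34583279-34583578, + strand: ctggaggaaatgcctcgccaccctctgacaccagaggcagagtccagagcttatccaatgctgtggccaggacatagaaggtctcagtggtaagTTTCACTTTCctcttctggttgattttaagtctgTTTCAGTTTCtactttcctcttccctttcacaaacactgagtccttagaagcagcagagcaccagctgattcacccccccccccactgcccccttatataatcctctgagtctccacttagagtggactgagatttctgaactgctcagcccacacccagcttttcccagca
Oas1a, chr5:120907476-120907775, - strand: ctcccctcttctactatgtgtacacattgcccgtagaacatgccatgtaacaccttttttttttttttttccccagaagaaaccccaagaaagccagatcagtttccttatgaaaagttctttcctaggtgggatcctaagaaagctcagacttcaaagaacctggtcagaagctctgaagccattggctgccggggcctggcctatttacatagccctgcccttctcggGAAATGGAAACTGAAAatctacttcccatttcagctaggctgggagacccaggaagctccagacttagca
Overlapping matches in Oas1a join into one run of capitals. Hmgcs1, the cytosolic HMG-CoA synthase of sterol synthesis and the only cholesterol gene with the match, was at 152.9 and 195.2 CPM in estrus and between 221.7 and 292.7 CPM elsewhere. Its log2 fold change was -0.47 (SE 0.173, edgeR adjusted p 0.189).

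The interferon response list stood on the other side. Of 26 tested members 22 were above 0, with a median log2 fold change of 0.64, and 13 had an unadjusted p under 0.05 and were higher, against 11.9% of all genes. Both estrus libraries lay above the other 4 for 12 of 26, against 19.9%, and DESeq2 called 5, against 1.36%. Irf7, the interferon regulatory factor that amplifies the response, was at 126.6 and 56.87 CPM in estrus and between 22.26 and 33.91 CPM elsewhere. Ifit3, which binds viral RNA complexes, was at 32.84 and 19.05 CPM against 5.61 to 10.46 CPM. Oasl2, a relative of the oligoadenylate synthetases, was at 60.55 and 42.00 CPM against 14.09 to 25.20 CPM. In all 3 genes estrus replicate 1 was the higher of the estrus libraries. Oas1a, one of several closely related synthetase genes whose reads may be split between copies, was at 15.32 and 10.96 CPM against 3.52 to 7.15 CPM. Their log2 fold changes were between 1.43 and 1.79, each with an edgeR adjusted p of 0.161. Without estrus replicate 1 the median of the list was 0.34, with 6 of 26 members at an unadjusted p under 0.05, against 4.23% of all genes.

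Most complement genes were higher as well. Of 20 complement genes 19 were above 0, with a median of 0.68. An unadjusted p under 0.05 was reached by 9 that were higher, against 11.9% of all genes, and by fewer without estrus replicate 1. Cfp, properdin, which stabilises the alternative pathway convertase, was at 62.92 and 55.09 CPM in estrus and between 19.04 and 35.06 CPM elsewhere (log2 fold change 1.12, SE 0.214). C1qc, a subunit of the first component and a macrophage product, was at 80.44 and 65.85 CPM against 30.19 to 50.41 CPM. C6, a subunit of the membrane attack complex, was at 7.55 and 3.97 CPM against 1.65 to 2.32 CPM. The lists of MHC genes and of chemokines had medians of 0.23 and -0.08. Of their members 0 of 16 and 2 of 26 were higher at an unadjusted p under 0.05, against 11.9% of all genes.

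Markers of several other cell types were also higher in estrus. Macrophage markers summed to 849.5 and 795.2 CPM in estrus, to 522.6 and 319.4 CPM in proestrus and to 470.6 and 698.4 CPM in metestrus, a ratio of 1.64. Of 12 macrophage markers 9 had an unadjusted p under 0.05 and were higher in estrus, against 11.9% of all genes. Fewer did so without estrus replicate 1, estrus replicate 2 or metestrus replicate 1. The median log2 fold change of these markers ranged from 0.51 to 0.91 over the alternatives. Mast cell markers summed to 177.1 and 171.3 CPM against 84.96 to 144.8 CPM, and the mast cell protease genes Mcpt4, Cma1 and Tpsb2 had log2 fold changes of 1.22, 1.16 and 1.09. Of the 7 tested mast cell markers 5 were above 0 and 2 below. At an unadjusted p under 0.05, 4 were higher and 1 lower, against 11.9% and 11.4% of all genes. The lower one was Kit, the stem cell factor receptor that is also a luminal marker, at 9.09 and 13.98 CPM against 16.19 to 34.00 CPM (log2 fold change -1.06, SE 0.263). B cell markers summed to 95.30 and 97.34 CPM against 33.16 to 75.25 CPM. Both estrus libraries lay above the other 4 for these 3 sums, for fibroblast and adipose progenitor markers (5773 and 6295 CPM against 3027 to 5319 CPM) and for Schwann and nerve markers (371.2 and 394.4 CPM against 267.9 to 332.2 CPM). With 2 against 4 libraries the exact permutation test has 15 splits, and its smallest two-sided p is 0.0667, so no single sum can reach 0.05. The part of these cells in the differences of the gene lists was not tested. In bulk RNA, fewer cells of a type and less RNA per cell cannot be told apart.

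Sums of the other marker lists overlapped between the groups. The adipocyte markers were at 3696 and 2776 CPM in estrus against 2303 to 3901 CPM, a ratio of 1.07. Endothelial markers were at 811.8 and 1503 CPM against 1398 to 1983 CPM, a ratio of 0.637, and all 12 had a log2 fold change below 0, with a median of -0.62. Estrus replicate 1 was the lowest of the 6 libraries in endothelial markers, as it was in the metabolic lists. Pericyte and smooth muscle markers had a ratio of 0.779 and skeletal muscle markers one of 1.97, with a range from 86.38 to 675.2 CPM over the 6 libraries. The ratios were 1.14 for luminal, 0.939 for basal, 0.432 for epidermal, 1.17 for lymphatic, 1.29 for T and NK cell, 1.69 for neutrophil and 0.87 for erythroid markers. Several of these ratios rested on 1 library. Without proestrus replicate 1 the epidermal ratio was 1.49 and the basal ratio 1.32, so both changed direction. The neutrophil ratio was 2.60 without estrus replicate 1 and 0.77 without estrus replicate 2, and the skeletal muscle ratio was 1.30 without estrus replicate 2. On omission of single libraries the luminal ratio ranged from 0.92 to 1.47 and the adipocyte ratio from 0.917 to 1.22.

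**Figure D3:**
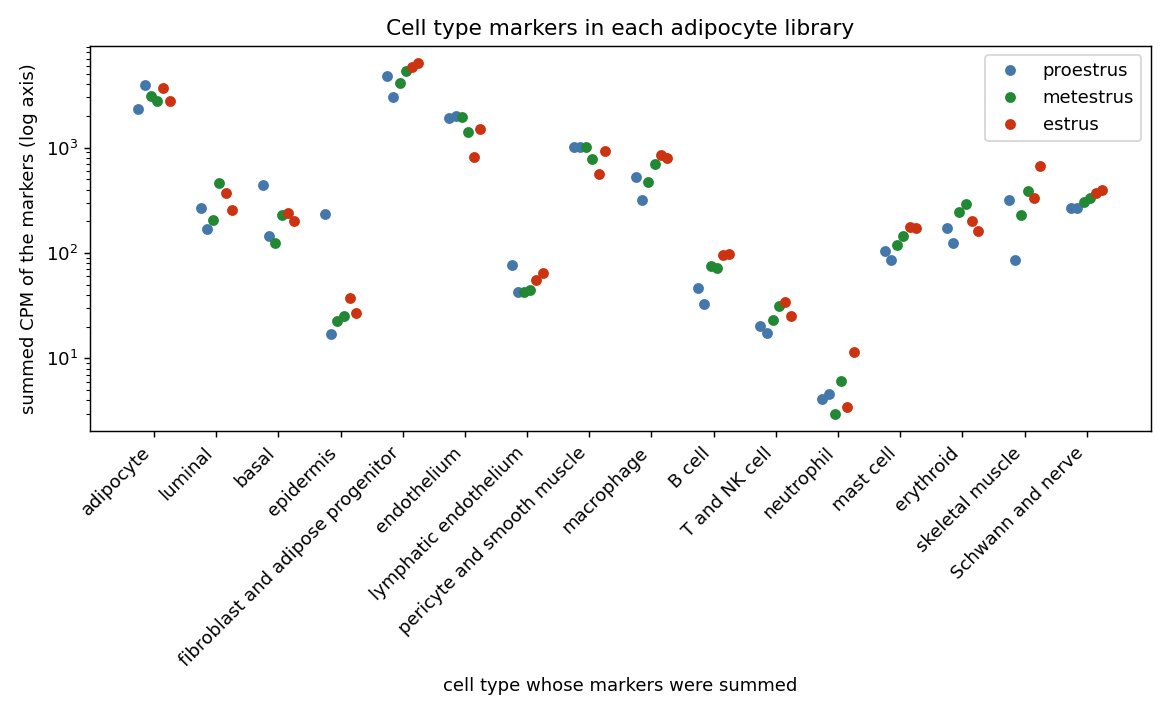
Summed CPM of the markers of 16 cell types in each of the 6 adipocyte libraries, on a log axis, with one point per library coloured by stage. The macrophage, mast cell, B cell, fibroblast and nerve sums are higher in both estrus libraries than in the other 4, and the adipocyte sum overlaps; the single high epidermal point is proestrus replicate 1.

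Genes of mitochondrial energy metabolism were lower in both estrus libraries, and estrus replicate 1 weighed most. All 20 genes of the tricarboxylic acid cycle and all 32 nuclear genes of oxidative phosphorylation had a log2 fold change below 0, with medians of -0.80 and -0.69. At an unadjusted p under 0.05 were 17 of 20 and 23 of 32, against 11.4% of all genes in that direction. Below all 4 other libraries lay 17 and 25, against 16.7% of all genes. Pdha1, the subunit of pyruvate dehydrogenase that feeds the cycle, was at 449.5 and 802.3 CPM in estrus and between 919.1 and 1378 CPM elsewhere. Cycs, cytochrome c, was at 72.40 and 120.3 CPM against 155.7 to 203.3 CPM. Ndufa4, a subunit of cytochrome c oxidase, was at 143.9 and 204.6 CPM against 251.2 to 363.6 CPM. In these 3 genes estrus replicate 1 was the lowest library and metestrus replicate 2 the nearest to estrus replicate 2. Without estrus replicate 1 the medians were -0.43 and -0.40, and without estrus replicate 2 they were -1.33 and -1.11. In the other alternatives the medians lay between these values. Most members of both lists no longer had an unadjusted p under 0.05 without estrus replicate 1, metestrus replicate 1 or either proestrus library. The 12 genes encoded by the mitochondrial genome had a median of -0.25. Of these, 1 was lower at an unadjusted p under 0.05, against 11.4% of all genes.

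**Figure D4:**
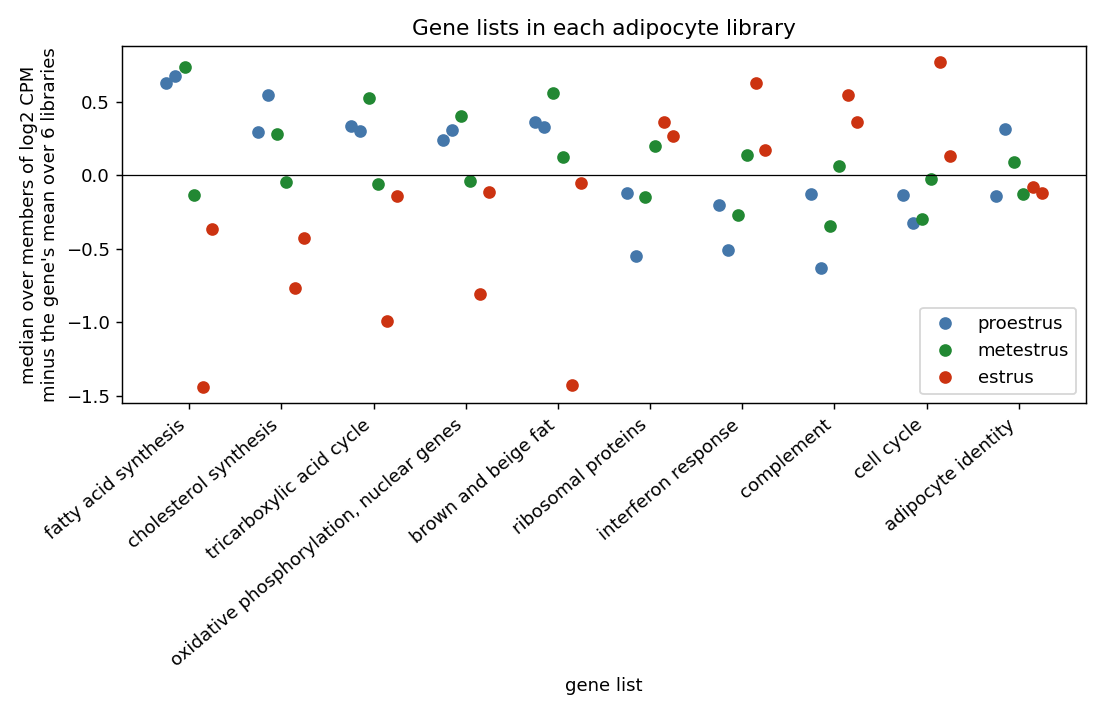
Selected gene lists in each adipocyte library; each point is the median over the tested members of the log2 CPM minus the mean of the gene over the 6 libraries, coloured by stage. Estrus replicate 1 is the lowest point in the 5 metabolic lists at the left, and in all 5 metestrus replicate 2 is the lowest of the libraries of the other stages.

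Fatty acid oxidation and the brown and beige fat list were lower in the same libraries. Of 22 oxidation genes 20 were below 0, with a median of -0.68. At an unadjusted p under 0.05, 11 were lower, against 11.4% of all genes. Slc25a20, the carnitine carrier of the inner mitochondrial membrane, was at 83.64 and 151.0 CPM in estrus and between 175.7 and 234.0 CPM elsewhere. Cpt1a, the carnitine transferase of the outer membrane, went the other way, at 31.46 and 27.07 CPM against 17.53 to 23.07 CPM. Of 17 brown and beige fat genes 14 were below 0, with a median of -0.88. At an unadjusted p under 0.05, 8 were lower, against 11.4% of all genes. Prdm16, a regulator of brown and beige adipocyte identity, was at 3.20 and 4.45 CPM against 6.11 to 9.92 CPM. Elovl3, a fatty acid elongase of brown fat, was at 19.50 and 69.21 CPM against 97.37 to 133.0 CPM. Ucp1, the uncoupling protein that defines brown fat and was looked up after the other values were seen, was at 437.6 and 1231 CPM in estrus and between 1337 and 1758 CPM elsewhere. Without estrus replicate 1 the medians of both lists were -0.35 and -0.37, and without estrus replicate 2 they were -1.20 and -1.84. Most members of both lists were no longer lower at an unadjusted p under 0.05 without estrus replicate 1, metestrus replicate 1 or either proestrus library.

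Lipid uptake, storage and glucose transport differed less. The list of fatty acid uptake and triglyceride synthesis had a median of -0.41. Of its 25 members 11 were lower at an unadjusted p under 0.05, against 11.4% of all genes. Fewer were lower without estrus replicate 1 or metestrus replicate 1. Acsl3 and Acsl5, which activate fatty acids with CoA, were at 28.10 and 26.52 CPM against 36.66 to 54.10 CPM, and at 65.29 and 139.5 CPM against 223.9 to 418.9 CPM. Gpihbp1, the endothelial anchor of lipoprotein lipase, was at 18.95 and 34.74 CPM against 43.99 to 50.57 CPM. The lipolysis and lipid droplet list had a median of -0.31, with 7 of 23 lower at that p, against 11.4% of all genes. Fewer were lower without estrus replicate 1, metestrus replicate 1 or proestrus replicate 2. Slc2a4, the insulin-regulated glucose transporter GLUT4, was at 61.60 and 105.2 CPM in estrus and between 119.7 and 233.3 CPM elsewhere (log2 fold change -1.19, SE 0.318, edgeR adjusted p 0.162). Of the 20 genes of glucose uptake and insulin signalling 3 lay below all 4 other libraries, against 16.7% of all genes. At an unadjusted p under 0.05, 4 were lower, against 11.4% of all genes, and the median was -0.18. The glycolysis and hypoxia list had a median of -0.36, with 7 of 22 lower at that p, against 11.4% of all genes. This count was smaller without estrus replicate 1, proestrus replicate 1 or metestrus replicate 1, and larger without estrus replicate 2. Pdk1, the kinase that switches pyruvate dehydrogenase off, was at 38.90 and 50.64 CPM against 63.24 to 93.87 CPM.

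Adipocyte identity genes were lower at near the share of all genes, and adipokines went both ways. The identity list had a median of -0.10. At an unadjusted p under 0.05, 3 of 19 (15.8%) were lower, against 11.4% of all genes, and 0 were higher. Adipoq, which encodes adiponectin, was at 1395 and 843.3 CPM in estrus, 660.6 and 1118 CPM in proestrus and 932.7 and 848.6 CPM in metestrus. The groups overlapped, and the log2 fold change was 0.33 (SE 0.291) and turned to -0.09 without estrus replicate 1. Lep, which encodes leptin, was at 63.08 and 47.97 CPM in estrus, 107.7 and 230.1 CPM in proestrus and 112.3 and 65.53 CPM in metestrus. Both estrus libraries were the lowest, though one of them by little, and the log2 fold change was -1.14 (SE 0.364, edgeR adjusted p 0.171). The adipokine list had 13 of 18 members above 0 and a median of 0.25. At an unadjusted p under 0.05, 4 of its members were higher and 4 lower, against 11.9% and 11.4% of all genes. Without estrus replicate 1 its median was -0.04, and fewer members were higher at that p. Fewer were also higher without estrus replicate 2 or metestrus replicate 1. Among the higher members, Fndc5, the precursor of irisin, was at 6.61 and 8.98 CPM against 3.86 to 6.34 CPM. Among the lower members, Nampt, the enzyme of NAD synthesis that is also secreted, was at 157.6 and 165.4 CPM against 231.7 to 274.7 CPM. Nrg4, a growth factor for ERBB receptors that brown and white fat secrete, was at 47.93 and 50.91 CPM against 61.33 to 80.72 CPM. Pparg, the master regulator of adipogenesis, was at 98.73 and 110.2 CPM against 121.4 to 164.5 CPM.

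Of the receptors for ovarian steroids, Esr1, estrogen receptor alpha, was at 65.84 and 70.44 CPM in estrus and between 46.12 and 60.95 CPM elsewhere (log2 fold change 0.38, SE 0.112, edgeR adjusted p 0.164). Pgr, the progesterone receptor, was at 11.40 and 6.30 CPM in estrus and between 3.88 and 15.62 CPM elsewhere. The 3 stages overlapped for Pgr, and its log2 fold change was 0.02 (SE 0.456), with a direction that changed with the scaling. Vdr, the vitamin D receptor, was at 4.41 and 6.92 CPM against 8.86 to 11.80 CPM, and Thra, a thyroid hormone receptor, at 87.44 and 103.0 CPM against 58.09 to 75.46 CPM. Of 19 genes on the estrogen response list 2 were higher and 2 lower at an unadjusted p under 0.05 (10.5% each). The shares of all genes were 11.9% and 11.4%, and the median of the list was 0.08. Cited1, a transcriptional coactivator that the estrogen receptor uses in the gland, was at 12.23 and 14.66 CPM against 2.98 to 8.94 CPM. Hsd11b1, which regenerates active glucocorticoid, was at 70.91 and 68.87 CPM in estrus and between 105.0 and 159.2 CPM elsewhere. The glucocorticoid response list had a median of 0.05, with 4 of 19 lower at an unadjusted p under 0.05, against 11.4% of all genes. Sgk1, a kinase that glucocorticoids induce, was at 143.7 and 176.7 CPM against 211.6 to 264.1 CPM.

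Wnt ligands, which signal between stroma and epithelium, were mostly of low level. Of 19 on the list, 18 were in the table and 10 passed the filter, 6 of them above 0 and 4 below. Wnt10a passed it through the 2 estrus libraries alone, as did 129 of the 13261 genes tested, so no count over the list is read as a result. Wnt2 was at 14.21 and 10.35 CPM in estrus and between 4.04 and 6.21 CPM elsewhere (log2 fold change 1.20, SE 0.221, edgeR adjusted p 0.161). Wnt4 was at 4.19 and 2.40 CPM against 0.993 to 1.69 CPM. Wnt10a was at 1.82 and 1.44 CPM against 0.367 to 0.439 CPM, so it had to differ in order to be tested. Wnt16, Wnt10b and Wnt7b differed by 0.83, 0.56 and 0.77 with SEs of 0.465, 0.348 and 0.538. Wnt5b differed by -0.39 (SE 0.504), with a direction that changed without proestrus replicate 1. The other 3 below 0, named after their values were seen, were Wnt5a, Wnt9a and Wnt11, at -0.09, -0.04 and -0.01, and all overlapped between the groups. The luminal transcription factor Foxa1 was at 5.79 and 5.96 CPM in estrus and between 1.24 and 4.05 CPM elsewhere, and summed luminal markers were at 373.5 and 254.2 CPM against 168.2 to 463.0 CPM. The part of epithelial RNA in the Wnt values was not tested. Nkd1, an inhibitor that Wnt signalling induces, was at 8.98 and 10.48 CPM against 5.10 to 6.11 CPM. Fzd4, a Wnt receptor also found on vessels, was at 45.56 and 51.80 CPM against 68.13 to 111.7 CPM.

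Of 25 cell cycle genes 13 were higher and 0 lower at an unadjusted p under 0.05, against 11.9% and 11.4% of all genes. The median of these cell cycle genes was 0.72. Top2a, the topoisomerase of dividing cells, was at 11.79 and 6.85 CPM in estrus and between 4.22 and 4.96 CPM elsewhere, and Cdk1, the mitotic kinase, at 3.69 and 3.43 CPM against 1.32 to 1.51 CPM. These levels are low, and the median ranged from 0.33 to 1.04 over the alternatives. Fewer members reached an unadjusted p under 0.05 without estrus replicate 1, proestrus replicate 2 or metestrus replicate 1. Ribosomal protein genes were above 0 in 77 of 78, with a median of 0.46. Both estrus libraries lay above the other 4 for 66 of them, against 19.9% of all genes. Their share of all counts was 3.32 and 2.92% in estrus against 1.64 to 2.48% elsewhere. An unadjusted p under 0.05 was reached by 49 of 78, against 11.9% of all genes in that direction. Most no longer reached it when estrus replicate 1, estrus replicate 2, proestrus replicate 2 or metestrus replicate 1 was left out. Rpl3l on this list passed the filter through the estrus libraries alone. Many ribosomal protein genes have processed copies in the genome, so their counts are uncertain. On the clock list 3 of 20 (15%) were higher and 5 (25%) lower at an unadjusted p under 0.05. The shares of all genes were 11.9% and 11.4%, and the median of the clock list was -0.18. Per3, a period gene of the clock, was at 20.50 and 19.12 CPM against 30.02 to 33.50 CPM, Hlf at 27.33 and 32.21 CPM against 42.39 to 45.64 CPM, and Npas2, a partner of the clock activator, at 4.08 and 5.21 CPM against 0.565 to 1.83 CPM. DESeq2 called Per3 and Hlf lower and Npas2 higher. The hour at which each pool was collected is not given in the sources used here.

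The matrix and the stress lists differed by less. Collagens had a median of 0.33, with 2 of 21 (9.52%) higher at an unadjusted p under 0.05, against 11.9% of all genes. Col3a1 was at 1952 and 2092 CPM in estrus and between 1029 and 1602 CPM elsewhere. Matrix glycoproteins had 5 of 26 higher at an unadjusted p under 0.05, against 11.9% of all genes, and a median of 0.21. Loxl1, a crosslinking oxidase of elastic fibres, was at 83.47 and 85.11 CPM against 50.38 to 57.79 CPM (log2 fold change 0.61, SE 0.1). Immediate early genes, which also respond to tissue digestion, had 6 of 22 lower, against 11.4% of all genes, and a median of -0.31. Atf3 was at 341.3 and 308.8 CPM against 416.5 to 512.8 CPM. Heat shock genes had 2 of 20 (10%) lower, against 11.4% of all genes, and a median of -0.25.

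To ask whether the estrus difference was shared by the other stromal population, the 6 fibroblast libraries of the same pools of mice were fitted with the adipocyte libraries. The difference between the estrus effects of both cell types passed an adjusted p of 0.05 for 2 of 13994 genes in edgeR (1 in each direction, 0.00715% each), and for 0 when the pools of mice were entered as a block. At an unadjusted p under 0.05 there were 3234 genes (23.1%) without the block and 3172 (22.7%) with it. DESeq2 called 1198 genes.

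Pgf (chr12:85166635-85177790), the placental growth factor that binds the receptor FLT1, was at 6.49 and 10.13 CPM in adipocytes in estrus, at 24.29 and 23.67 CPM in proestrus and at 18.67 and 15.35 CPM in metestrus. In fibroblasts it was at 62.37 and 54.31 CPM in estrus, 36.09 and 35.18 CPM in proestrus and 26.82 and 28.11 CPM in metestrus. It was the lowest in estrus in one cell type and the highest in estrus in the other. The difference of the log2 effects was -2.19 (SE 0.248), with an edgeR adjusted p of 0.0321, and of 0.0514 with the pools as a block. Sema3a (chr5:13125414-13602565), a secreted guidance cue for axons and vessels, showed the reverse. It was at 5.03 and 4.32 CPM in adipocytes in estrus against 1.90 to 2.15 CPM in the other stages, and at 2.01 and 3.16 CPM in fibroblasts in estrus against 6.61 to 9.05 CPM. The difference was 2.75 (SE 0.325), with an edgeR adjusted p of 0.0321, and of 0.0514 with the block.

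The lower metabolic lists of adipocytes did not have lower medians in fibroblasts. The medians of estrus against the other stages in fibroblasts were 0.05 for fatty acid synthesis, 0.12 for cholesterol synthesis, 0.11 for the tricarboxylic acid cycle and 0.27 for oxidative phosphorylation, where all 13994 genes had 0.08. The difference between the cell types had an unadjusted p under 0.05 for 11 of 20, 15 of 19, 14 of 20 and 27 of 32 of these genes, against 23.1% of all genes, and passed the adjusted threshold for 0. For the interferon response it was 4 of 26, with a median of 0.07 in fibroblasts, for complement 10 of 21 with a median of -0.15, and for ribosomal proteins 2 of 78 with a median of 0.14. The fibroblasts were sorted to exclude blood and endothelial cells and the fat layer was not sorted, so cell type and preparation cannot be told apart. Marker medians also differed in estrus within the fibroblast libraries. They were 3.00 for erythroid (5 of 5 higher), 0.90 for endothelial (12 of 12), 1.47 for luminal (11 of 12) and 1.14 for basal markers (10 of 10). Fibroblast and adipose progenitor markers had -0.31, with 9 of 12 lower. The part of this in the difference between the cell types was not tested.

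**Figure D5:**
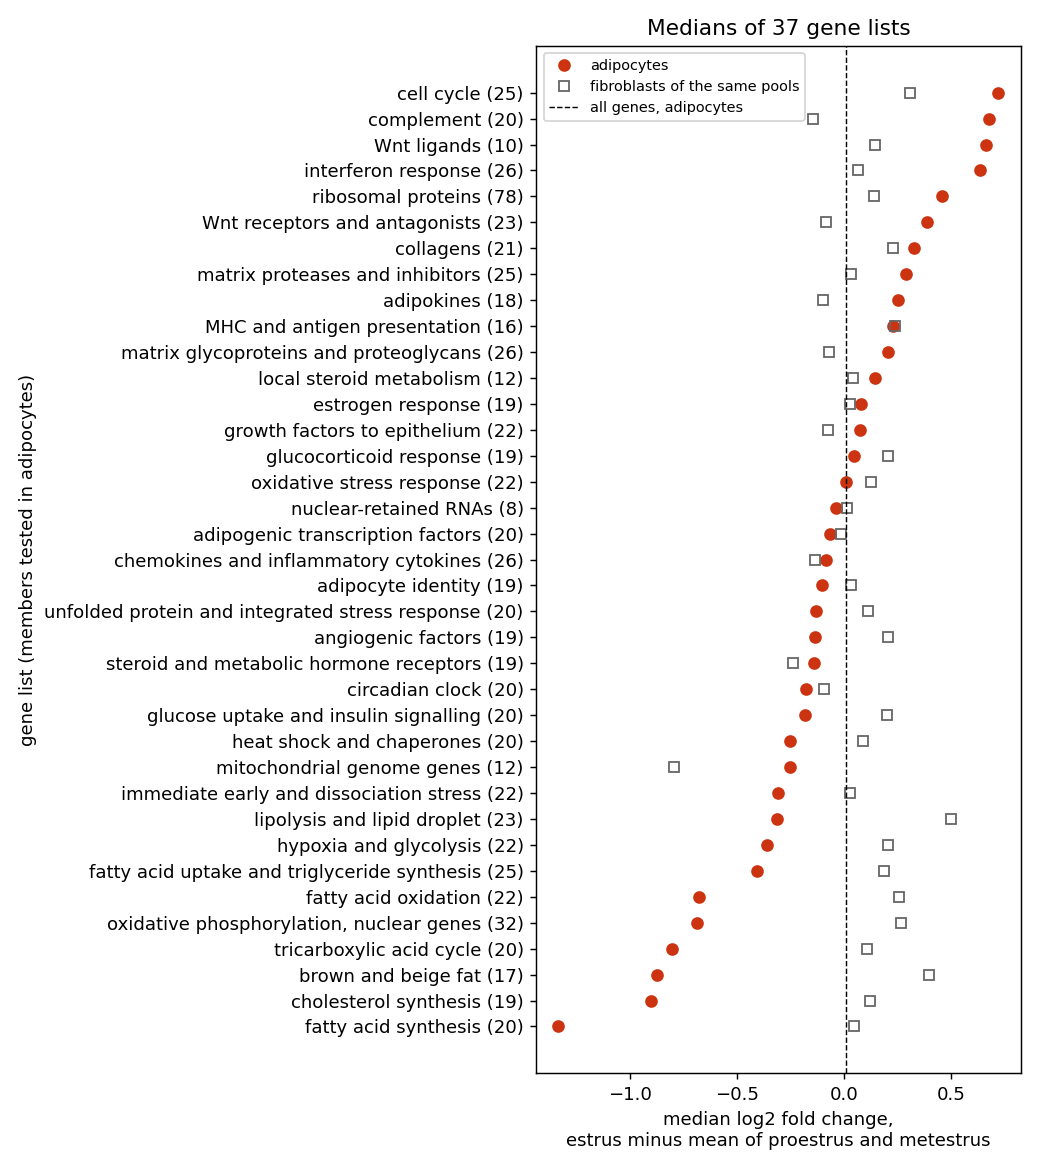
Median log2 fold change of estrus against the mean of proestrus and metestrus over the members of 37 gene lists, in adipocytes (filled) and in fibroblasts of the same pools (open), with the median of all genes in adipocytes as a dashed line. In adipocytes fatty acid synthesis has the lowest median, -1.33, and the cell cycle list the highest, 0.72; the Wnt ligand median includes Wnt10a, which passed the filter through the estrus libraries alone.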

How the data were processed

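The deposited tables hold raw gene-level counts. According to the methods and the submitters' processing notes, the authors made stranded polyA libraries, sequenced single-end reads of 65 bp, aligned them to GRCm38 (mm10) with TopHat2 2.1 and Bowtie 1.1.0, and counted them per gene with HTSeq. Groups were taken from the labels. Symbols and positions come from GENCODE M21, which matched 24739 of 25044 gene identifiers. The counts were analysed with edgeR 4.0.16 (quasi-likelihood F-test) in R 4.3.3, with TMM factors and 3 stage groups. A gene entered when at least 2 of the 6 libraries exceeded 1 CPM (counts scaled to a common library size), and the Benjamini-Hochberg threshold was 0.05 per comparison. The adipocyte and fibroblast effects were compared in a fit of 12 libraries with 6 groups. DESeq2 1.42.0, RLE factors, other filters, the newer quasi-likelihood method, blocks, larger fits and the omission of each library were alternatives. CPM in the text are on TMM factors of the libraries of each fit, and marker sums on those of the 8 adult fat libraries. Depth, from 13889631 to 21094651 counts, limits precision mainly for genes of a few CPM. Counts were simulated for the main comparison (13034 genes), with 100 genes changed by 1 and 100 by 2 on the log2 scale. Of these, 73% and 100% were recovered, with 16 false calls. For the difference from fibroblasts 17% and 78% were recovered, with 6 false calls. Only genes of an average log2 CPM of at least 2 were changed. Shifts of many genes at once were not simulated, so these shares cannot say which changes were missed in the real libraries. The pubertal tables and the tables scaled by the authors were not used here, and the strand setting of the counting is not given in the sources used here.

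The members, gene lists, tests and alternatives were chosen with earlier results of these data known. Named genes are the 12 per direction ordered by unadjusted p among genes without overlap and with an average log2 CPM of at least 2 (adjusted calls would have come first), up to 4 members of each list with the smallest p, and genes of the study such as Pgr and Wnt genes. Predicted genes are left out, and some named genes are not reported here. Acaca, Fasn, Ucp1, Hmgcs1, Sema3a, Wnt5a, Wnt9a, Wnt11 and Rpl3l were named after their values were seen.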

Additional observations from a re-analysis of the deposited data

Results flagged for a closer look

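Results in which the estrus difference of adipocytes differed from that of fibroblasts by a test of the difference itself were singled out. Pgf differed by -2.19 on the log2 scale (edgeR adjusted p 0.0321), being lower in estrus in 2 of 2 adipocyte libraries and higher in 2 of 2 fibroblast libraries than in all libraries of the other stages. Sema3a differed by 2.75 (edgeR adjusted p 0.0321), in the opposite directions and also in 2 of 2 libraries of each cell type. With the pools of mice as a block both had an adjusted p of 0.0514. Over the omission of single adipocyte libraries the adjusted p lay between 0.013 and 0.202 for Pgf and between 0.0313 and 0.309 for Sema3a, and only the fit without estrus replicate 2 kept both under 0.05.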

How the results depend on the processing

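The number of genes called depended on the tool and the filter, and the cause was not tested. For estrus against the mean of both stages 0 genes were called as reported, 457 with DESeq2, 1171 without a filter on low counts (526 higher, 645 lower), 1 with 2 groups and 112 (18 higher, 94 lower) in a fit of 32 adult libraries. For estrus against proestrus, 1 gene was called as reported, 575 with DESeq2, 1603 without a filter, 211 with 32 libraries, and 0 with 8 adipocyte libraries. For estrus against metestrus the counts were 0 as reported, 39 with DESeq2 and 106 without a filter, and for proestrus against metestrus 0, 8 and 89. Leaving out each library gave 0 for the first comparison, 0 to 10 for estrus against proestrus and for proestrus against metestrus (10 without proestrus replicate 2 in both), and 0 to 248 for the difference from fibroblasts (248 without adipocyte estrus replicate 2). That difference had 2 calls as reported and 1198 with DESeq2.

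The replicate numbers did not pair the adipocyte libraries: deviations of same-numbered libraries correlated at 0.022, -0.346 and -0.319. With the replicate block 0 genes were called for estrus against proestrus, and 0 for the difference from fibroblasts with the pools, which were the same mice, as the block. It ended no other call.

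The log2 difference of Pgr was -0.003 with RLE factors, -0.012 with DESeq2, -0.007 without a filter, -0.016 with filterByExpr, -0.026 with the replicate block, -0.043 with 2 groups, -0.053 with 32 libraries, and -0.486 to 0.415 when single libraries were left out. On omission of single libraries Adipoq ranged from -0.085 to 0.615, Wnt5b from -0.975 to 0.072, Wnt9a from -0.212 to 0.091 and Wnt11 from -0.097 to 0.085.

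Marker alternatives were chosen after seeing the data. Without scaling beyond the totals the ratios were 1.93 for B cell, 1.76 for mast cell and 1.47 for Schwann and nerve markers. On omission of single libraries they ranged from 1.49 to 1.90 for B cell, 1.43 to 1.70 for mast cell, 0.77 to 2.60 for neutrophil, 0.587 to 0.971 for pericyte and smooth muscle, and 1.26 to 1.36 for Schwann and nerve markers.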

Other observations

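The 2 diestrus fat libraries, which were outside the comparison, had summed luminal markers of 1830 and 924.8 CPM, where the 6 libraries of the comparison had 168.2 to 463.0 CPM. Summed basal markers were at 625.4 and 4037 CPM there. Epidermal markers summed to 20.24 and 1875 CPM in diestrus replicates 1 and 2. Adipocyte markers were at 923.8 CPM in diestrus replicate 2, below the 2303 to 3901 CPM of the 6 libraries, and at 3432 CPM in diestrus replicate 1.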
